A study of Caenorhabditis elegans with 78 samples.

Results

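Regions carrying trimethylated lysine 4 of histone H3 (H3K4me3) in only one genotype were compared between lin-37(n758) mutants and wild-type worms of Caenorhabditis elegans grown at 20 °C. The overlapping H3K4me3 peaks of 4 lists, 2 from lin-37 and 2 from wild type, were merged into 7036 regions. A region was gained when it was called in both lin-37 lists and in neither wild-type list, and lost when the calls were the reverse. This rule gave 280 gained regions, 3.98% of all merged regions, and 253 lost regions, 3.6%. A further 4204 regions were called in all 4 lists and are referred to as shared regions.

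The samples were whole starved L1 larvae, so every library mixes many cell types. The mutants carried lin-37(n758) and the controls were wild-type, with 2 libraries per genotype at 20 °C and 2 at 26 °C for each of H3K4me3 and H3K9me2. Per the labels' protocols, parents were grown at 20 °C, the 26 °C cultures were moved to that temperature as L4 larvae, and embryos hatched over 14 h without food. Mutants of 2 related genes, lin-15B(n744) and lin-35(n745), were profiled in the same way. Libraries of H3K9me2 and H3K4me3 with the same genotype, temperature and replicate number name the same input control in the labels. Nothing in the labels says that replicates came from separate cultures, and p-values here reflect only library-to-library spread, possibly technical.

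H3K4me3 marks the promoters of active genes, and dimethylated lysine 9 of the same histone (H3K9me2) marks repressed chromatin, which in worms lies mainly on the arms of the autosomes. LIN-37 belongs to the DREAM complex, which binds promoters and keeps cell-cycle and germline genes repressed in somatic cells. LIN-35, the worm retinoblastoma protein, is part of the same complex, and LIN-15B is a DNA-binding protein that acts with it in repression of germline genes.

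The 4 lists had similar sizes. The lin-37 lists held 6090 and 5421 peaks over 5.06 and 4.26 Mb, and the wild-type lists held 5435 and 6077 peaks over 4.43 and 5.0 Mb. The shared length over the joint length was 0.745 for the lin-37 pair and 0.763 for the wild-type pair, against 0.689 to 0.708 for the 4 pairs of lists from different genotypes. The lists carry no read counts, so depth is unknown, and a missing call does not show that the mark itself was missing. Replicate 2 of lin-37 and replicate 2 of wild type carry the same run tag in their deposited names, while the replicate 1 libraries carry 2 other tags.

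Gained regions were on average weak and narrow, but the class reached high enrichment. Fold enrichment over input is the authors' own value for each peak and is used to rank peaks within a list. The gained regions had a median fold of 4.13 in lin-37 replicate 1 and 2.51 in replicate 2, at the 32.2 and 26.0 percentile of those lists, with the highest at 36.3 and 18.1. Shared regions had median folds of 11.5 and 6.48 in the same lists. The ranking of gained regions was alike in both replicates (Spearman's rho 0.859 over 280 regions, a description, since the regions share both libraries). In 231 of the 280 gained regions (82.5%) the summits called in the 2 lin-37 lists lay within 100 bp of each other, with a median gap of 27.5 bp. The gained regions spanned 273 to 1583 bp with a median of 557.5 bp, whereas the shared regions had a median of 1012 bp. The median width of gained regions was 339 bp without lin-37 replicate 2, 379 bp without lin-37 replicate 1 and 375 bp for the pair of libraries with the same run tag.

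Lost regions stayed near the lower end of the wild-type lists. They had median folds of 3.15 in wild-type replicate 1 and 2.23 in replicate 2, at the 20.7 and 22.6 percentile, and maxima of 8.75 and 6.75. None had a mean fold of 10 or more, and 177 of 253 had a mean fold under 3. Their fold ranks agreed less between the wild-type replicates (Spearman's rho 0.429 over 253 regions, as a description). Their median width was 420 bp and their median summit gap was 32 bp.

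**Figure D1:**
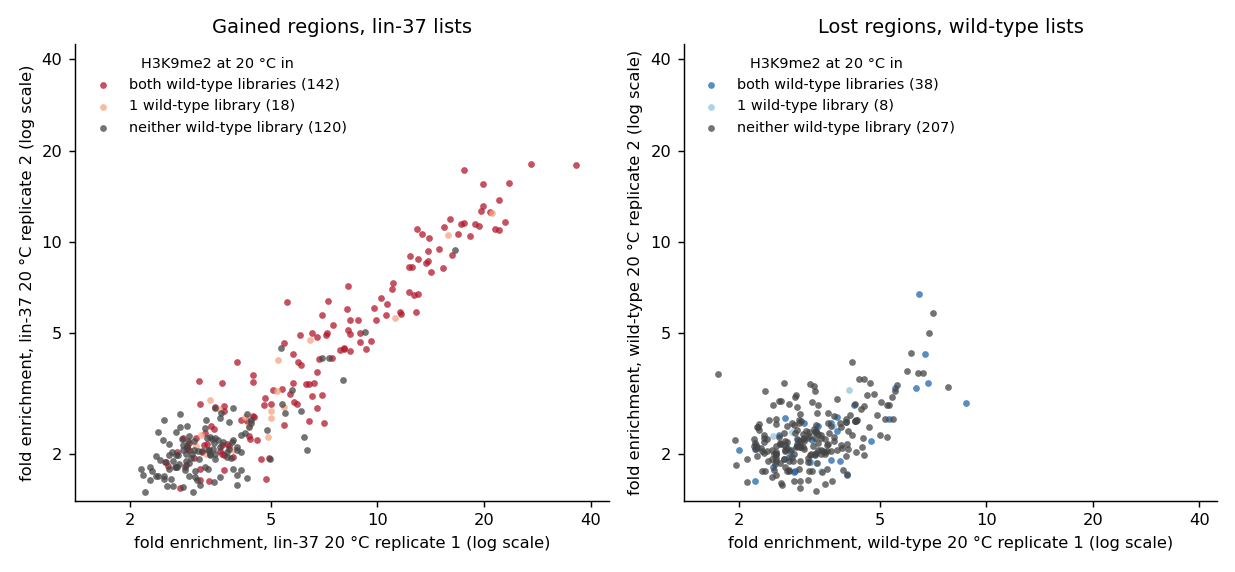
H3K4me3 fold enrichment of each gained region in the 2 lin-37 20 °C lists (left) and of each lost region in the 2 wild-type 20 °C lists (right), both axes on a log scale, with points coloured by H3K9me2 calls in the wild-type 20 °C libraries. Gained regions reached folds of 36.3 and 18.1 and the high ones mostly had H3K9me2 in both wild-type libraries, whereas no lost region passed 8.75.

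Many regions fell just outside the rule. A peak in both lin-37 lists and in 1 wild-type list was found at 312 regions, and their wild-type peaks had a median −log10 q of 10.4. A peak in 1 lin-37 list only was found at 686 regions, with a median −log10 q of 5.36. On the other side, 329 regions had peaks in both wild-type lists and 1 lin-37 list, and 650 had a peak in 1 wild-type list only. Inside the rule, the median −log10 q was 13.8 for gained regions in the lin-37 lists, with a lowest value of 2.03, and 11.8 for lost regions in the wild-type lists, with a lowest value of 2.14. Leaving out a list removes a condition, so the counts rise by construction. Without lin-37 replicate 1, lin-37 replicate 2 or wild-type replicate 2 the gained count was 447, 859 or 561, and without lin-37 replicate 1, wild-type replicate 1 or wild-type replicate 2 the lost count was 524, 733 or 471. Within the shared run tag, 1 library against 1, 495 regions were called in lin-37 replicate 2 and not in wild-type replicate 2, and 1227 the other way.

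Gained regions lay on chromosome arms more often than shared regions did. With arms defined as the first and last 30% of each autosome, 169 gained regions (60.4%) were on arms, 80 (28.6%) in autosome centres and 31 (11.1%) on X. For lost regions the counts were 97 (38.3%), 117 (46.2%) and 39 (15.4%), close to the 42.9%, 43.3% and 13.7% of shared regions. Set against all merged regions of each zone, gained regions made up 5.63% on arms, 2.74% in centres and 2.78% on X, and lost regions 3.23%, 4.01% and 3.49%. Without lin-37 replicate 2 the arm share of gained regions was 47.1%, and without wild-type replicate 2 it was 49.6%. The X share was 18.3% and 16.2% under the same omissions, above rather than below the 13.7% of shared regions. That 13.7% is from all 4 lists, and shared regions were not recounted under the omissions.

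By chromosome, the gained share was highest on III (65 regions, 5.14% of the merged regions there), V (54, 4.79%) and IV (53, 4.74%) and lower on II (36, 3.22%), I (41, 3.18%) and X (31, 2.78%). The lost share varied less, between 3.26% on I (42 regions) and 4.11% on II (46 regions). Of 103 windows of 1 Mb, 87 held at least 1 gained region, with a median of 2 and at most 10. Lost regions were alike, in 90 windows with the same median and maximum. The gained share of a window was highest at 17 to 18 Mb of IV (4 of 25 regions, 16%). The window with 10 gained regions was 13 to 14 Mb of III (10 of 71, 14.1%). The nearest shared region lay a median of 7196 bp from a gained region, 4536 bp from a lost region and 5427 bp from another shared region.

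**Figure D2:**
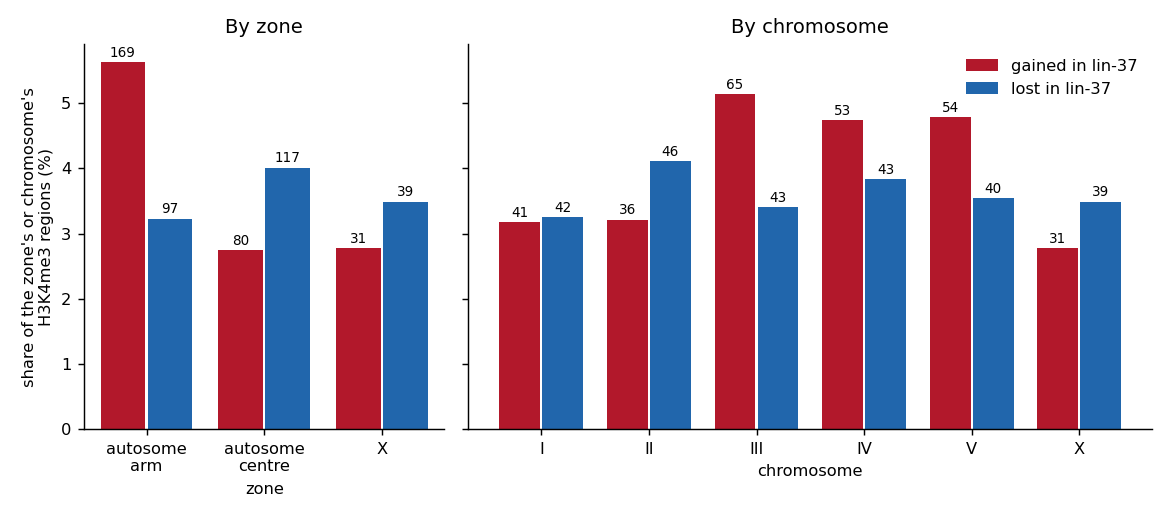
Gained and lost regions as a percentage of the merged H3K4me3 regions of each zone (left) and chromosome (right), with the number of regions above each bar. Gained regions made up 5.63% of the arm regions and 2.74% of the centre regions, and lost regions 3.23% and 4.01%.

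The gained regions overlapped wild-type H3K9me2 more often than the shared regions did. At 20 °C, 142 of 280 gained regions (50.7%, exact binomial 95% interval 44.7 to 56.7, counting error only) overlapped an H3K9me2 peak in both wild-type libraries, 18 in 1 library and 120 in neither. The same held for 38 of 253 lost regions (15%, interval 10.9 to 20.0), for 824 shared regions (19.6%) and for 1369 of all merged regions (19.5%). Since H3K9me2 is itself an arm mark, the share was read within zones. On arms 66.3% of gained regions had it, against 36.5% of all arm regions. In centres it was 27.5% against 7.85%, and on X 25.8% (8 of 31) against 3.85%. When H3K9me2 had to cover at least 50% of the region, the gained share was 40.4%. Leaving out lin-37 replicate 2 gave 27.9%, leaving out wild-type replicate 2 gave 33.7%, and the pair with the shared run tag gave 41.6%.

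Wild-type H3K9me2 went with the strength of the gained peak. Among gained regions with a mean lin-37 fold under 3, 28 of 122 (23.0%) had H3K9me2 in both wild-type libraries. This share was 55.2% of 87 regions at folds of 3 to 6, 94.1% of 34 regions at 6 to 10 and 91.9% of 37 regions at 10 or more. In shared regions of the same fold bands it was 14.9%, 18.3%, 18.5% and 21.5%. Of the 71 gained regions with a mean fold of 6 or more, 66 had wild-type H3K9me2, 51 lay on arms, 18 in centres and 2 on X. Of the 2689 shared regions of that fold, 1181 lay on arms, 1196 in centres and 312 on X.

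**Figure D3:**
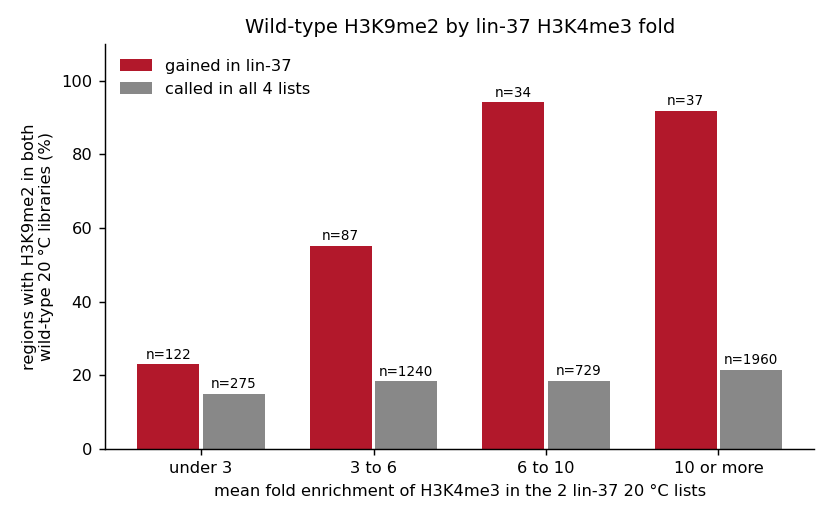
Percentage of gained regions (left bars) and of shared regions called in all 4 lists (right bars) with an H3K9me2 peak in both wild-type 20 °C libraries, by mean H3K4me3 fold in the lin-37 20 °C lists, with the number of regions above each bar. The share was 23.0%, 55.2%, 94.1% and 91.9% in gained regions of increasing fold and 14.9% to 21.5% in shared regions.

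The gained regions with and without wild-type H3K9me2 differed in other ways. The 142 with it had median folds of 6.75 and 4.30 in the 2 lin-37 lists, near the middle of those lists (50.8 and 48.8 percentile), a median width of 602 bp and an arm share of 78.9%. The 120 without it had median folds of 3.23 and 2.04 (18.1 and 12.6 percentile), a median width of 508.5 bp, an arm share of 40% and an X share of 18.3%. These values come from the lists that chose the regions and are given as a description.

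H3K9me2 libraries had no part in the choice of regions, so the mark could be compared between genotypes. In lin-37 libraries 32.5% and 26.1% of gained regions overlapped H3K9me2 at 20 °C and 23.2% and 25.4% at 26 °C. Wild-type libraries had 51.1% and 56.8% (20 °C) and 55% and 47.5% (26 °C). The 4 lin-37 libraries all lay below the 4 wild-type libraries. Over all 7036 merged regions the libraries also separated, by a narrow margin, with 19.5%, 16.4%, 15.4% and 19.1% in lin-37 (mean 17.6%) and 21.1%, 23.4%, 25.6% and 19.5% in wild type (mean 22.4%), where the closest pair differed by under 0.1 points. All merged regions include the gained ones, and how far these make that separation was not tested. In shared and lost regions, given below, the groups overlapped. The means in gained regions were 26.8% ± 4.00 in lin-37 and 52.6% ± 4.15 in wild type (SD, n = 4 each), a difference of −25.8 points. An exact two-sided permutation test over the 8 libraries gave p = 0.0286, the smallest it can give with 4 against 4, and an adjusted p of 0.0571 over the 2 tests made (gained and lost regions), which misses 0.05. The exact permutation test within temperature gave p = 0.0556, the smallest it can give. In the 20 °C libraries alone the difference was −24.6 points (exact permutation p = 0.333, the smallest for 2 against 2). The size of the difference moved with the H3K4me3 lists that chose the regions: it was −9.95 points without lin-37 replicate 2, −13.9 points without wild-type replicate 2 and −16.5 points for the pair with the shared run tag.

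The same comparison in lost regions gave 14.6% and 14.6% at 20 °C and 12.6% and 14.6% at 26 °C in lin-37, against 16.2% and 17% at 20 °C and 17.4% and 13.4% at 26 °C in wild type. The groups overlapped, and the difference of −1.88 points did not pass the test (exact permutation p = 0.114, adjusted p = 0.114). It was 0.648 points when the lost regions were chosen without wild-type replicate 1. In shared regions the H3K9me2 shares were 18.6%, 15.4%, 15.8% and 19.3% in lin-37 and 21.3%, 24.0%, 26.5% and 19.2% in wild type, with overlapping groups. The length under H3K9me2 peaks over the genome was 8.38 to 11.1 Mb in lin-37 libraries and 7.54 to 11.3 Mb in wild-type libraries.

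**Figure D4:**
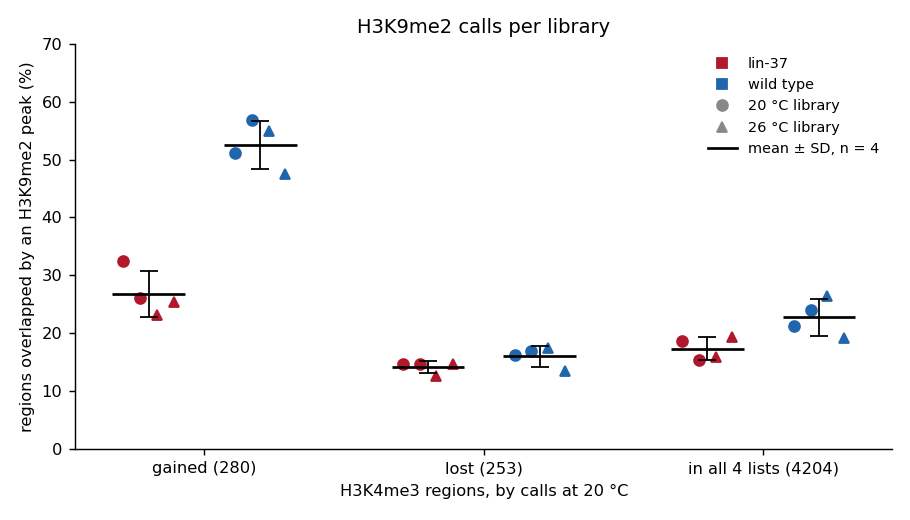
Percentage of gained, lost and shared regions overlapped by an H3K9me2 peak in each lin-37 library (left of each pair) and wild-type library (right), circles at 20 °C and triangles at 26 °C, with the mean and SD over 4 libraries. In gained regions the lin-37 libraries lay between 23.2% and 32.5% and the wild-type libraries between 47.5% and 56.8%. In lost and shared regions the groups overlapped. Over all merged regions (not drawn), which include the gained ones, they did not, with means of 17.6% and 22.4%.

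Among the 142 gained regions chosen for H3K9me2 in both wild-type 20 °C libraries, the lin-37 libraries called the mark in 59.2% and 44.4% at 20 °C and in 44.4% and 44.4% at 26 °C. The wild-type 26 °C libraries, which did not enter that choice, called it in 95.8% and 85.2%. By the number of lin-37 20 °C libraries, 55 of the 142 regions had no H3K9me2 call (38.7%), 27 had 1 call and 60 had 2. In shared regions with wild-type H3K9me2 the mark was called in neither lin-37 library at 193 of 824 (23.4%). Over all merged regions, a call in both wild-type and neither lin-37 20 °C library was made at 4.12%, against 19.6% of gained regions and 3 of 253 lost regions. At 26 °C the same pattern was found at 62 gained regions (22.1%), against 3.21% of all regions. Over both temperatures 34 gained regions (12.1%) had H3K9me2 in no lin-37 library but in all 4 of wild type, as did 65 shared regions (1.55%), no lost region and 1.61% of all regions. The reverse change at 20 °C was called at 3 gained and 1 lost region, with 1.35% over all regions.

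The 55 regions without an H3K9me2 call in lin-37 had the higher H3K4me3, with a median mean fold of 7.18 and a median width of 679 bp. The 60 regions that kept the call in both lin-37 libraries had a median mean fold of 3.99 and a median width of 565 bp. Of the 55, 32 lay on arms, 19 in centres and 4 on X, and of the 60, 54 lay on arms, 3 in centres and 3 on X. At those 60 regions H3K9me2 covered a median of 93.3% and 72.1% of the bases in the lin-37 20 °C libraries, against 99.0% and 100% in the wild-type 20 °C libraries. At 26 °C the medians were 79.1% and 77.1% in lin-37, against 100% and 88.2% in wild type. Shared regions with wild-type H3K9me2 showed the same order of fold. The 193 without a lin-37 20 °C call had a median mean fold of 15.4, and the 508 with both calls 8.70. On arms lay 129 of the 193 and 415 of the 508. Median coverage of the 508 at 20 °C was 42.2% and 27.8% in lin-37, against 55.9% and 61.1% in wild type. At 26 °C it was 30.3% and 38.3%, against 55.9% and 37.4%.

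The strongest gained regions show the range of H3K9me2 outcomes. Coordinates are in build ce10, and no gene annotation in that build was used, so the regions are given by position. The highest mean fold was at chrIII:875591-876643, with 36.3 and 17.9 in the lin-37 20 °C lists. This region was also called in both 26 °C lists of each genotype, with folds of 28.6 and 24.6 in lin-37 and 8.59 and 9.38 in wild type, and H3K9me2 peaks overlapped it in all 8 lin-37 and wild-type libraries. H3K9me2 covered 27.4% and 25.6% of it in lin-37 at 20 °C and all of it in wild type. The next region, chrI:10485700-10487077, had folds of 27.2 and 18.1 and the same pattern of calls for both marks, with 26 °C folds of 35.9 and 28.9 in lin-37 and 4.15 and 3.66 in wild type.

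Other strong gained regions had H3K9me2 in wild type and none in lin-37. At chrIII:5155786-5157091 lin-37 had folds of 22 and 13.7 (20 °C) and of 41.2 and 22.3 (26 °C), with no wild-type H3K4me3 call at either temperature, and H3K9me2 was called in all 4 wild-type and no lin-37 library. The same pattern of calls was found at chrX:8147351-8147951 (lin-37 20 °C folds of 19.8 and 15.6), the strongest gained region on X, and at chrIV:13450457-13451455 (17.6 and 17.3). They also held at chrII:12150020-12150772 (22.1 and 10.9). At chrIV:13686680-13687352 (23.5 and 15.7) H3K9me2 was called in both wild-type 20 °C libraries and neither wild-type 26 °C library. At chrIV:13636728-13637666 (22.9 and 11.6) the H3K9me2 calls were 4 in wild type and 0 in lin-37, and 1 wild-type 26 °C list had an H3K4me3 peak, with a fold of 1.99. The 3 regions on the right part of chromosome IV span 237 kb.

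Other regions departed from this pattern. H3K9me2 at chrII:9041133-9042150 (21 and 12.4) was called in 1 of 2 wild-type 20 °C libraries, in both at 26 °C and in no lin-37 library. At chrIV:4258516-4259575 (20.7 and 12.6) it was called in every lin-37 library, where it covered 23.8% to 30.9% of the region, and in every wild-type library, where it covered 91.5% to 95.6%. The strongest gained region on V, chrV:15590955-15591837 (16.0 and 11.9), had H3K9me2 in both lin-37 20 °C libraries and in neither at 26 °C, and in all 4 wild-type libraries.

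Of the 55 regions with H3K9me2 in wild type and not in lin-37 at 20 °C, 4 more were among the 10 strongest. At chrII:7194940-7195730 and chrI:5678044-5679461 the H3K9me2 calls were 4 in wild type and 0 in lin-37, and H3K4me3 was called at 26 °C in 2 and 1 wild-type lists. The chromosome II region lies next to a lost region, chrII:7194489-7194880, with wild-type 20 °C H3K4me3 folds of 4.08 and 2.38. Wild type thus had H3K4me3 calls at 20 °C right beside the gained region. These neighbours have the same lin-37 26 °C folds, 29.9 and 28.0, and −log10 q values, as a peak overlapping both would give. The gained and the lost region may therefore be parts of the same site. At chrIII:9321966-9322573 no wild-type H3K4me3 was called at 26 °C, where the lin-37 folds were 39.3 and 22.6. At chrIV:1601571-1602499 the lin-37 26 °C folds were 32.3 and 21.7 and the 4 lin-15B lists had peaks of 14.5 to 33.8, while none of the 4 lin-35 lists had a peak there. The widest gained region, chrV:5300509-5302091 with 1583 bp, was weak (3.8 and 2.08), had no H3K9me2 call at 20 °C in either genotype, and was called for H3K4me3 at 26 °C in 1 lin-37 and both wild-type lists.

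The strongest lost regions were weaker, and 6 of the top 10 had no H3K9me2 call in any lin-37 or wild-type library. At chrI:2049112-2049682, with folds of 6.48 and 6.75 in the wild-type 20 °C lists, H3K9me2 covered the whole region in all lin-37 and wild-type libraries, and H3K4me3 was called again at 26 °C with folds of 6.17 and 2.98 in lin-37 and 11.4 and 11.1 in wild type. The next 2, chrIII:10357439-10357894 (7.06 and 5.84) and chrI:4967028-4967534 (6.90 and 5.01), had no H3K9me2 call in any lin-37 or wild-type library. Both were called again in lin-37 at 26 °C, in 2 lists and 1 list. The fourth, chrII:13612899-13614627, had 8.75 and 2.95, and was called in 1 lin-37 26 °C list. All 10 of the strongest lost regions had a peak in at least 1 lin-37 26 °C list. The only lost region with H3K9me2 in both lin-37 and neither wild-type 20 °C library was chrX:15157732-15158134 (wild-type folds 3.50 and 2.24), without a lin-37 H3K4me3 call at 26 °C. The widest lost region, chrIV:11022360-11025170 with 2811 bp, had wild-type folds of 2.38 and 3.21.

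The 26 °C libraries give the same measure in samples that did not choose the regions, but they share run tags with those that did. Replicate 1 of both genotypes at 26 °C carries the tag of the 20 °C replicate 2 lists. Wild-type 26 °C replicate 2 carries that of lin-37 20 °C replicate 1, and lin-37 26 °C replicate 2 has a tag of its own. Gained regions were called in 74.3% and 80.7% in the lin-37 26 °C lists and in 49.3% and 27.5% in the wild-type 26 °C lists, without overlap. The means were 77.5% ± 4.55 in lin-37 and 38.4% ± 15.4 in wild type (SD, n = 2 each), and the exact two-sided permutation test gave p = 0.333, the smallest that 2 against 2 allows. Lost regions were called in 70.8% and 57.7% in lin-37 and in 95.3% and 73.1% in wild type, with means of 64.2% ± 9.22 in lin-37 and 84.2% ± 15.7 in wild type (exact permutation p = 0.333). The gained difference of 39.1 points was 16.6 points when the regions were chosen without lin-37 replicate 2 and 21.5 points without wild-type replicate 2. The lost difference of −20 points was −11.5 points when they were chosen without lin-37 replicate 1 and −9.21 points for the pair with the shared run tag. Without wild-type 26 °C replicate 1 it was −8.89 points, and without wild-type 26 °C replicate 2 −31 points. Shared regions were called in 97.9% and 98.5% in lin-37 and in 99.8% and 97.4% in wild type.

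By the same rule at 26 °C, 99 of 280 gained regions (35.4%) were again called in both lin-37 and neither wild-type list, against 2.5% of all merged regions. The lost pattern recurred at 22 of 253 lost regions (8.70%), against 1.42% of all regions, and 110 lost regions (43.5%) were called in all 4 lists at 26 °C. Of the gained regions with wild-type H3K9me2, 80 of 142 (56.3%) recurred, and of those without it 10 of 120 (8.33%). The lin-37 26 °C lists called 93.0% and 96.5% of the 142 and the wild-type 26 °C lists 38% and 25.4%. For the 120, the lin-37 lists called 50% and 60.8% and the wild-type lists 63.3% and 31.7%, so the genotypes overlapped.

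Calls at 26 °C also went with fold. Both lin-37 26 °C lists called 41.0% of gained regions with a mean 20 °C fold under 3, 85.1% at 3 to 6 and all 71 at 6 or more. In shared regions this share was 81.8%, 94.4%, 99.2% and 100% over the 4 bands from low to high. Of gained regions, 36.9%, 52.9%, 58.8% and 62.2% over the 4 bands from low to high were called in neither wild-type 26 °C list. Shared regions had 1.09%, 0.161%, 0.137% and 0% in the same bands, and all merged regions 10.4%. Of the 71, 18 were called in both wild-type 26 °C lists and 10 in 1. Of the 2689 shared regions with a mean fold of 6 or more, 2682 were called in both. Where gained regions were called at 26 °C, median folds were 15.5 and 7.58 in the lin-37 lists, at the 64.0 and 58.1 percentile there. In the wild-type lists they were 2.3 and 3.2, at the 27.9 and 19.6 percentile. Peaks of the 26 °C lists did not enter the merge, so such a fold can belong to a peak that extends beyond the region.

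The other mutants were set beside these values. Their 20 °C comparison would use the same wild-type lists, so only the share of regions called is given. Gained regions were called in 61.4% and 96.1% in lin-15B at 20 °C and in 61.1% and 90.4% at 26 °C. In lin-35 they were called in 80.0% and 54.3% at 20 °C and in 57.9% and 64.3% at 26 °C. Of all merged regions the lin-15B lists called 65.9% and 95% at 20 °C and 68.0% and 90.5% at 26 °C, and the lin-35 lists called 85.5% and 68.5% at 20 °C and 72.3% and 76.2% at 26 °C. Gained regions were thus called less often than regions overall in all 4 lin-35 lists. Lost regions were called in 23.7% and 96.0% in lin-15B and 74.3% and 34.4% in lin-35 at 20 °C.

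The gained regions with wild-type H3K9me2 were called more evenly. At 20 °C they were called in 85.9% and 97.2% in lin-15B and in 87.3% and 73.2% in lin-35, and at 26 °C in 86.6% and 95.8% and in 83.1% and 82.4%. Those without it ranged between 24.2% and 94.2% over the same 8 lists. Of the 71 gained regions with a mean lin-37 fold of 6 or more, all were called in the 4 lin-15B lists and 67 in the 4 lin-35 lists. Shared regions of that fold were called there at 2676 and 2680 of 2689, so a strong region of either class was nearly always called. H3K4me3 was called in all 12 mutant lists and in no wild-type list at either temperature in 69 gained regions (24.6%). Of these, 59 had H3K9me2 in both wild-type 20 °C libraries and 3 in neither. This pattern contains the rule for gained regions, so no other region could meet it. The 69 are 0.981% of all merged regions. H3K9me2 overlapped 16.8% and 29.3% of gained regions in lin-15B at 20 °C and 27.1% and 24.6% at 26 °C, and 31.8% and 34.6% in lin-35 at 20 °C and 31.1% and 26.4% at 26 °C. The lin-15B 20 °C replicate 1 list was called at a q cutoff of 0.05, per its peak names. All 8 H3K9me2 shares of gained regions were below the lowest wild-type library, at 47.5%. Over all merged regions the H3K9me2 shares were 12.2%, 22.7%, 20.1% and 19.8% in lin-15B and 19.4%, 20.2%, 18.8% and 15.1% in lin-35. Wild-type libraries had 19.5% to 25.6% there, so the ranges overlapped.

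**Figure D5:**
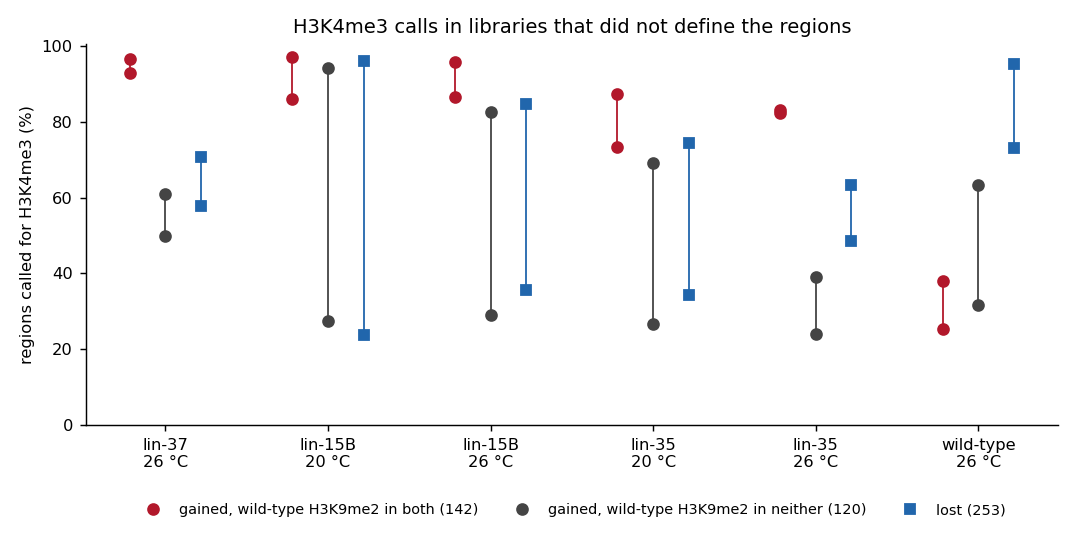
Percentage of regions called for H3K4me3 in each library that did not define them, 2 libraries per genotype and temperature joined by a line, for gained regions with wild-type H3K9me2 in both or neither 20 °C library and for lost regions. The 142 gained regions with H3K9me2 were called in 73.2% to 97.2% in the mutant libraries and in 25.4% and 38% in the wild-type 26 °C libraries; the other sets spread widely in both.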

How the data were processed

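The submitters' processing notes name Bowtie 1.1.2, MACS2 and genome build ce10; the MACS2 version is not given in the sources used here. Per the labels, each library was called against an input library; peak names give a q cutoff of 0.01 for all lists compared between lin-37 and wild type. H3K4me3 was immunoprecipitated on an automated instrument and H3K9me2 by hand, per the labels. The authors deposited a fold enrichment (a ratio) and −log10 p and −log10 q values per H3K4me3 peak; of the H3K9me2 lists only positions were used. The lists hold no counts, so depth is unknown.

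Sub-peaks with the same start and end were collapsed to the one with the highest −log10 q, with its fold. The fold of a merged region in a list was the highest among its collapsed peaks. Peaks of the 4 lists were merged where they overlapped, and a region counted as called from 1 bp of overlap. Chromosome length was the highest peak end. Shares of regions per library were compared by exact two-sided permutation tests (Python 3.11.15, SciPy 1.17.1), with Benjamini-Hochberg adjustment over 2 tests, after testing on simulated data. The regions and lists were chosen with earlier results of these data known. Named regions were the 10 strongest gained and lost, the 10 strongest gained with H3K9me2 in both wild-type and neither lin-37 20 °C library and the lost reverse, the strongest gained per chromosome, and the widest. The other 46 samples were not analysed here. Alternatives varied the overlap, the q threshold, list sizes, libraries, bins and arm limits.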

Additional observations from a re-analysis of the deposited data

Results flagged for a closer look

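In 2 sets of regions, 1 of the 4 lin-37 H3K9me2 libraries differed from the other 3 and met Dixon's criterion at the 95% level, which chance exceeds in about 5% of groups. In both sets the other 3 libraries were exactly tied, so the criterion is met whatever the size of the gap and says nothing about it. The lin-37 26 °C replicate 1 library overlapped 12.6% of lost regions, while the other 3 all overlapped 14.6%. The lin-37 20 °C replicate 1 library overlapped 59.2% of the gained regions that had H3K9me2 in both wild-type 20 °C libraries, while the other 3 all overlapped 44.4%; this library had 11.1 Mb under H3K9me2 peaks, against 8.38 to 8.84 Mb in the other 3, and the part of that length in the value was not tested.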

How the results depend on the processing

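Counts rest on calls in every list, so fewer lists give more regions by construction. Leaving out each H3K4me3 20 °C library gave 314 to 859 gained and 325 to 733 lost regions, with wild-type H3K9me2 at 27.9% to 51.0% of the gained ones. The pair sharing a run tag gave 495 gained and 1227 lost regions and 41.6% with H3K9me2. Bins of 1 kb gave 474 and 463. H3K9me2 in at least 1 wild-type library was found at 57.1% of gained regions, and H3K9me2 over at least 50% of a region at 40.4% of gained and 10.3% of lost regions. A −log10 q of at least 5 gave 244 gained and 269 lost regions, of which 224 and 214 were members of the main sets; equal peak numbers gave 288 and 250. The H3K9me2 difference in gained regions kept its sign in all 21 alternatives. In lost regions it was 0.648 points without wild-type replicate 1 of the H3K4me3 lists. Over all left-out libraries it ranged from −3.01 to 0.648 points; the cause was not tested. Pairing libraries by replicate number (replicate block) left the H3K9me2 difference in gained regions at −25.8 points with an exact sign-flip p = 0.125, and gave p = 0.25 in lost regions and p = 0.5 for both H3K4me3 shares at 26 °C. Same-numbered libraries did not deviate together (r of 0.0248 and −0.234 for H3K4me3 at 20 and 26 °C, −0.335 and −0.0698 for H3K9me2), so the numbers were not taken as pairs.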
